A study of Mus musculus with 8 samples.

Results

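Axon guidance ligands and receptors were examined in mouse cells labelled as breast cancer cells. They were the 71 genes among the 23478 in the count table that belong to these families by symbol. Taken were all symbols that start with Sema, Plxn, Epha, Ephb, Efna, Efnb or Unc5, the Slit genes 1 to 3 and Robo genes 1 to 4, the netrins Ntn1, Ntn3 and Ntn4, the neuropilins Nrp1 and Nrp2, and the receptor genes Dcc and Neo1. They are 20 semaphorins, 2 neuropilins, 9 plexins, 8 ephrins, 14 Eph receptors, 3 Slits, 4 Robo receptors, 3 netrins and 6 netrin receptors. The other 2 genes, Unc50 and Unc5cl, matched by their letters only and are not netrin receptors. All 71 passed the filter on low counts and were among the 17069 genes tested. The gene Dcc must not be confused with the disseminated cancer cells, which are written DCC.

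Guidance cues steer growing axons, and the same molecules act on the adhesion, movement and vessel supply of many other cells, tumour cells included. Secreted class 3 semaphorins bind a neuropilin that signals through a plexin, while membrane-bound semaphorins bind plexins directly. Ephrins sit on one cell and Eph receptor tyrosine kinases on its neighbour, so that contact signals both ways. Slits are secreted ligands of Robo receptors, and netrins are secreted ligands of Dcc, neogenin (Neo1) and the Unc5 receptors.

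RNA had been sequenced from 8 libraries in 4 groups of 2, which the labels call biological replicates. The DCC IFN-gamma group held disseminated cancer cells treated with interferon-gamma, a cytokine of Th1 cells, and the DCC control group held the same kind of cells without it. Both were cultured cells taken from the bone marrow of mice whose breast cancer had spread spontaneously. The sources used here do not give how much interferon-gamma was used, or for how long. The TUBO group was an untreated breast cancer cell line, known as a line from a mammary carcinoma of a mouse carrying the activated rat Erbb2 oncogene neuT, and the early lesion group held untreated cancer cells isolated from early mammary lesions whose titles name neuT. The genotype is given as WT for every library, also for those that name neuT. The labels do not say that replicates came from separate mice or cultures, so p-values measure the spread between these samples, which may be technical.

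Each library had between 15432210 and 30168475 reads on genes, so that 3 counts, taken as the floor of detection, stood for 0.0954 to 0.183 CPM (counts-per-million of the library's total on genes, scaled by TMM). Standing apart were replicate 1 of DCC control and replicate 2 of early lesion, with 49.16% and 44.14% of all reads outside annotated genes, against 18.32% to 30.97% in the other 6 libraries. The DCC libraries also did not carry the markers of mammary epithelium. The 12 epithelial markers summed to 0.367 and 0.501 CPM in DCC IFN-gamma and 7.30 and 3.88 CPM in DCC control, against 5950 and 6360 CPM in TUBO and 3480 and 3290 CPM in early lesion, and Epcam had no count in either DCC IFN-gamma library or in DCC control replicate 1. The 12 osteoblast and stromal markers summed to 841 and 1380 CPM in DCC IFN-gamma and 9740 and 11200 CPM in DCC control, against 146 and 131 CPM in TUBO and 49.6 and 44.2 CPM in early lesion. The DCC groups are therefore called by their labels below. In bulk RNA fewer cells of a type and less RNA per cell cannot be told apart.

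**Figure D1:**
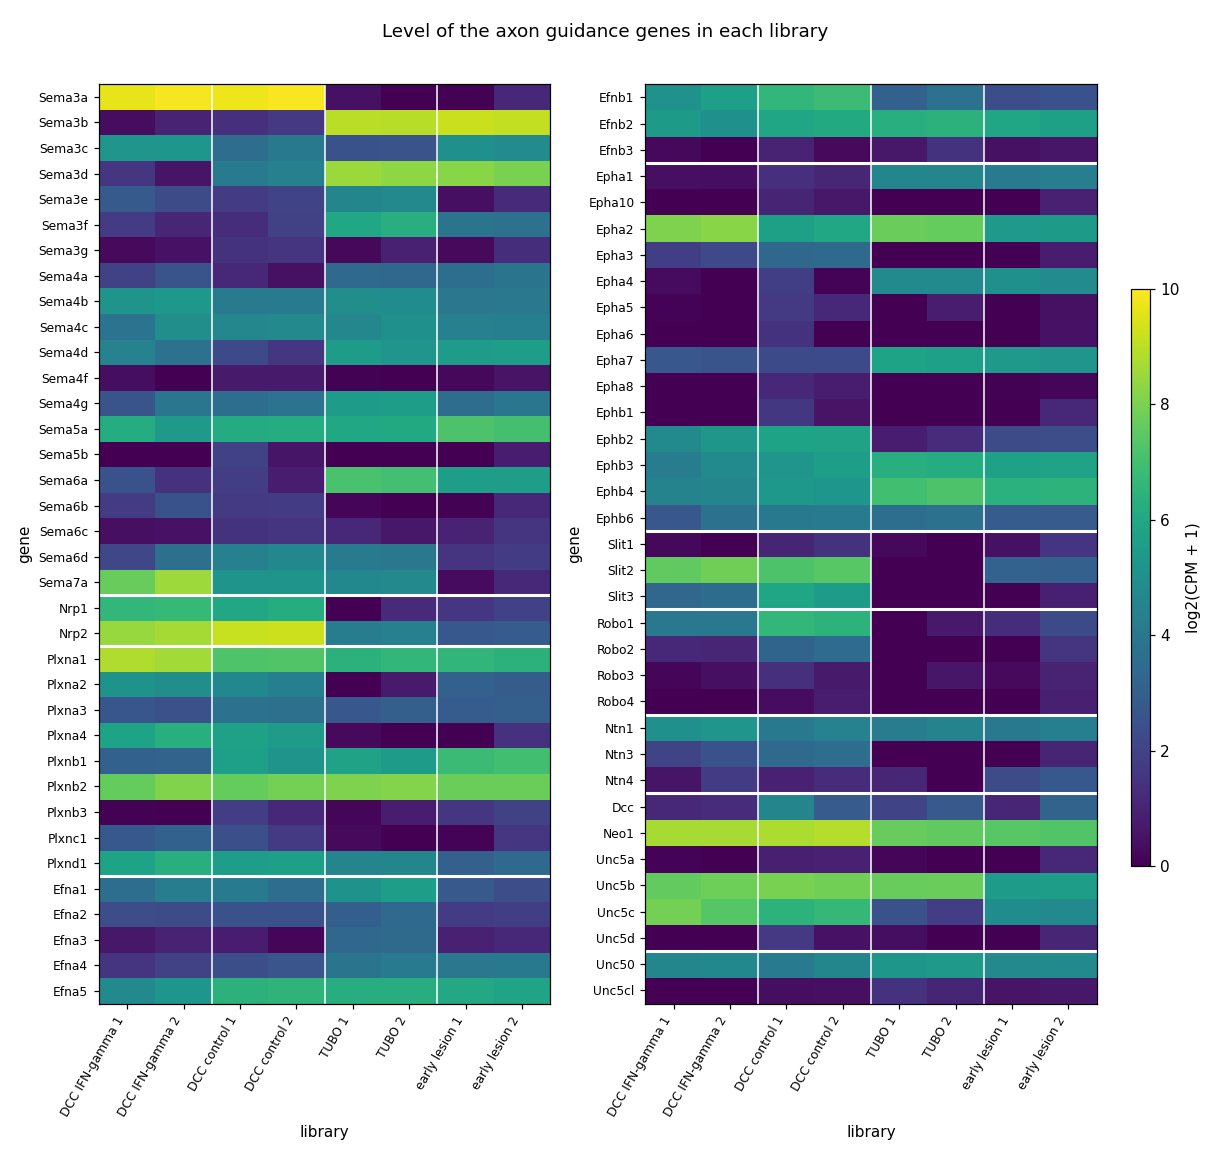
Levels of the 71 genes, as log2(CPM + 1), by family in rows and by library in columns, with the 2 libraries of each group side by side in the order DCC IFN-gamma, DCC control, TUBO and early lesion. High levels are bright and low levels dark. Sema3a, Slit2 and Nrp2 are bright in the 4 DCC libraries, Sema3b and Sema3d in the 4 TUBO and early lesion libraries, and 17 genes stay under 3 CPM on average in every group.

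The most abundant guidance genes differed between the cells, compared as RPKM (CPM per kilobase of annotated exons) so that genes of different length can be set side by side. In DCC IFN-gamma the highest group means were 86.8 RPKM for Sema7a, 61.8 for Sema3a, 60.2 for Epha2, 47.4 for Neo1 and 46.3 for Plxna1. In DCC control they were 65.5 RPKM for Sema3a, 51.9 for Neo1, 50 for Nrp2, 38.4 for Unc5b and 30.5 for Efnb1. A single semaphorin led in both mammary groups: Sema3b averaged 102 RPKM in TUBO and 118 RPKM in early lesion, and Sema3d followed at 39.1 and 31.9 RPKM, separated from it in TUBO by Epha2 at 43.6 RPKM.

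The first comparison asks what interferon-gamma did to the disseminated cells. The membrane-bound semaphorins Sema4a, Sema4b, Sema4d and Sema7a rose, as did the Eph receptor Epha2 and the semaphorin receptor Plxna1, while the plexin Plxnb1, the ephrins Efna5 and Efnb1 and the secreted semaphorin Sema3d fell. By edgeR's quasi-likelihood test at an adjusted p under 0.05, 9 of the 71 genes were higher and 13 lower in DCC IFN-gamma than in DCC control, or 12.7% and 18.3%. Among all genes tested 12.6% were called higher and 8.83% lower, so the share that rose was close to that over all genes. The median log2 difference of the 71 was -0.80, beside -0.20 over all genes. Scaling by upper quartile moved the median of all genes to -0.40 and the split of all called genes from 2148 higher and 1508 lower to 1526 higher and 2221 lower, and then called 8 of the 71 higher and 17 lower. The count of lower genes was 25 when only these 4 libraries were fitted, 8 without DCC control replicate 2, and 5 when both replicate 1 of DCC control and replicate 2 of early lesion were left out.

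The cell type markers moved with the treatment too. Of 11 macrophage markers 9 rose, summing to 1410 and 1010 CPM in DCC IFN-gamma, against 105 and 109 CPM in DCC control, where all 11 had a count in both libraries. Of 12 osteoblast and stromal markers 8 fell and 1 rose. Falls were also called for 4 of 11 epithelial markers, already low in DCC control. Of the markers of Schwann cells and other glia 2 of 7 fell, as did 2 of 7 smooth muscle and pericyte markers, and none of these 3 lists had a rise. Pan-leukocyte markers summed to 407 and 374 CPM in DCC IFN-gamma, against 38.5 and 34.0 CPM in DCC control, with 3 of 7 called higher. Their part in the changes below was not tested.

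**Figure D2:**
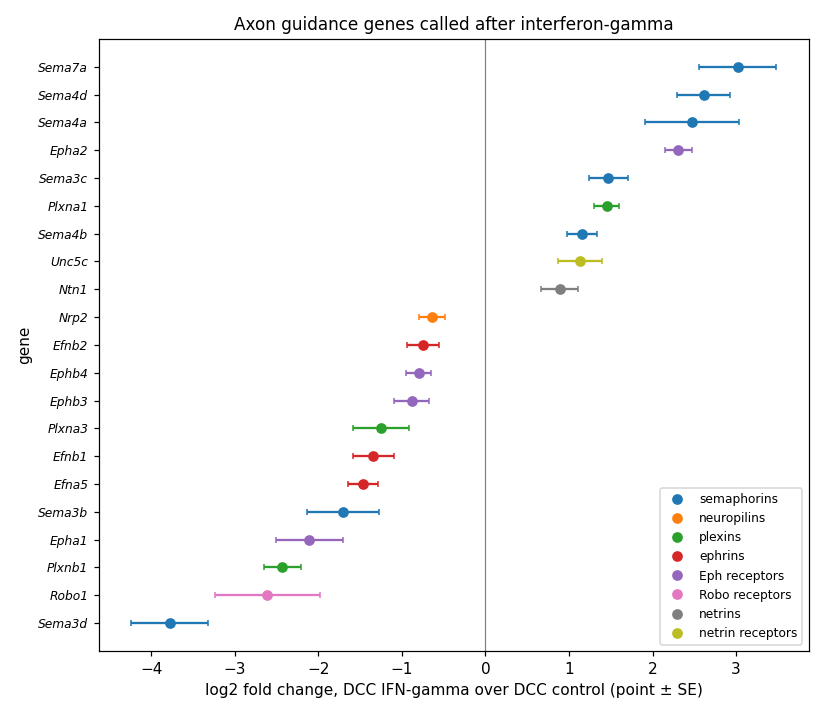
Log2 fold change of DCC IFN-gamma over DCC control for 21 of the 22 called genes, with bars of 1 standard error, from edgeR. Sema7a has the largest rise at 3.02 and Sema3d the largest fall at -3.78; Plxnb3, with 1 count in the treated libraries, is not drawn.

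DCC control was next set against early lesion, which compares cells labelled as disseminated with cells labelled as from early lesions. Sema3a, Slit2, Slit3, both neuropilins, Plxna4, Robo1, Efnb1 and Ephb2 were far higher in DCC control, and Sema3b, Sema3d, Sema4a, Sema4d, Sema6a, Epha1, Epha4 and Epha7 were far lower. Of the 71 genes 22 were called higher (31.0%, against 19.1% of all genes) and 14 lower (19.7%, against 18.7%). The median log2 difference was 0.83 for the 71 and 0.23 over all genes. Without DCC control replicate 2 the count of higher genes was 14. All 12 osteoblast and stromal markers were higher and 10 of the 11 epithelial markers tested were lower in DCC control. Other lists moved as well: 7 of 11 macrophage markers, 5 of 7 pan-leukocyte markers and 3 of 7 smooth muscle and pericyte markers were higher in DCC control, with 1 of the last list lower. The markers of Schwann cells and other glia summed to 41.6 and 48 CPM in DCC control, against 1050 and 1020 CPM in early lesion, with 3 of the 7 tested lower and 1 higher. Among all 8 glial markers, which include Erbb3, 4 and 3 exceeded 1 CPM in the DCC control libraries and 4 in each early lesion library. The glial sums thus do not stand for the whole list. Neuronal markers summed to 21.6 and 13.7 CPM in DCC control, against 109 and 110 CPM in early lesion. Of the 7 tested, 1 was lower and 2 higher in DCC control. Among all 10 neuronal markers, 6 and 4 exceeded 1 CPM in the DCC control libraries, but only 1 and 3 in early lesion. The sum in early lesion replicate 1 thus came almost wholly from 1 marker and does not stand for the list. The part of these markers in the differences was not tested.

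Against TUBO, 21 genes were higher in DCC control (29.6%, against 22.1% of all genes) and 19 lower (26.8%, against 19.9%), with a median of 1.03 for the 71 and 0.37 over all genes. Sema3a, Slit2, Slit3, Robo1, Plxna4 and both neuropilins were again high in DCC control. All of these but Nrp2 had no count in at least 1 TUBO library and at most 1.30 CPM in the other. These DCC control libraries are the same as in the comparison with early lesion, so the results of these comparisons are not independent. Here too all 12 osteoblast and stromal markers were higher, and 9 of 11 epithelial markers lower, in DCC control. There were 8 of 11 macrophage, 6 of 7 pan-leukocyte and 4 of 7 smooth muscle and pericyte markers higher in DCC control. Of 7 glial markers 3 were lower and 1 higher, and of 9 endothelial markers 2 were higher. Their part here was not tested. Upper quartile scaling moved the median of all genes here to 0.48 and left the counts of the 71 at 21 and 19.

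TUBO and early lesion, the pair of mammary tumour sources, differed at fewer of these genes than either did from DCC control. In TUBO 17 were higher (23.9%, against 11.4% of all genes) and 7 lower (9.86%, against 12.7%), and the median was -0.16 for the 71 and -0.27 over all genes. All 5 called ephrins, Epha2, Sema3e, Sema3f, Sema7a and Unc5b were on the higher side, and Slit2, Sema3c, Plxna2, Plxnb1, Ephb2 and Unc5c on the lower. The count of higher genes was 10 without early lesion replicate 1 or without TUBO replicate 2, and 11 without early lesion replicate 2. The count of lower genes was 13 without early lesion replicate 1, and 17 with no filter on low counts. Cell type markers differed here too, with 3 of 11 epithelial markers higher in TUBO. Of 12 osteoblast and stromal markers 2 were higher and 1 lower. Lower in TUBO were 3 of 11 macrophage, 1 of 7 pan-leukocyte and 2 of 7 smooth muscle and pericyte markers. Their part in these differences was not tested.

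Among the class 3 semaphorins, the secreted ligands, DCC and mammary cells expressed different members. Sema3a (GRCm38, chromosome 5, 13125414 to 13602565, plus strand), a repellent ligand for Nrp1 with A-class plexins, gave 788 and 926 CPM in DCC IFN-gamma, 849 and 966 CPM in DCC control, 0.379 and 0 CPM in TUBO and 0.0318 and 1.16 CPM in early lesion. Every DCC library lay far above every mammary one, and the treated and untreated DCC overlapped. The difference was 12.13 ± 1.08 on the log2 scale (standard error, as for all fold changes below) for DCC control over TUBO (adjusted p = 0.00019) and 10.74 ± 0.99 for DCC control over early lesion (adjusted p = 0.000246). DCC IFN-gamma was not called apart from DCC control (-0.08 ± 0.61, adjusted p = 0.935). The size of these differences rests on few reads, 11 in TUBO replicate 1 and 1 and 26 in early lesion: it was 11.20 without TUBO replicate 2, 9.61 without early lesion replicate 1, and 14.59 without early lesion replicate 2, and without TUBO replicate 1 no count was left in that group.

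Sema3b (chromosome 9, 107597674 to 107609229, minus strand), a class 3 semaphorin known as a candidate tumour suppressor, ran the other way. It gave 0.257 and 0.918 CPM in DCC IFN-gamma, 1.52 and 2.14 CPM in DCC control, 497 and 481 CPM in TUBO and 583 and 546 CPM in early lesion. DCC control was lower than TUBO (-8.03 ± 0.36, adjusted p = 2.23e-07) and lower than early lesion (-8.24 ± 0.37, adjusted p = 2.22e-07). TUBO and early lesion were not called apart (-0.21 ± 0.26, adjusted p = 0.57). Interferon-gamma lowered the small DCC level further (-1.70 ± 0.43, adjusted p = 0.0205), a change of -1.02 without DCC IFN-gamma replicate 1, -2.80 without replicate 2 of that group, and not called without DCC control replicate 2 (adjusted p = 0.141).

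Sema3d (chromosome 5, 12383385 to 12588948, plus strand), a secreted ligand that guides axons and neural crest cells, gave 2.02 and 0.501 CPM in DCC IFN-gamma, 16.1 and 19.4 CPM in DCC control, 357 and 316 CPM in TUBO and 297 and 252 CPM in early lesion. The 4 groups fell into 3 levels that did not overlap, with TUBO and early lesion sharing the highest. DCC control was lower than TUBO (-4.24 ± 0.41, adjusted p = 0.000142) and than early lesion (-3.95 ± 0.40, adjusted p = 0.00021), and TUBO was not called apart from early lesion (0.29 ± 0.35, adjusted p = 0.564). Its fall with interferon-gamma was the largest among the 71 of those called on more than 3 counts (-3.78 ± 0.46, adjusted p = 0.00137) and was -5.14 without DCC IFN-gamma replicate 1 and -3.10 without DCC IFN-gamma replicate 2.

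**Figure D3:**
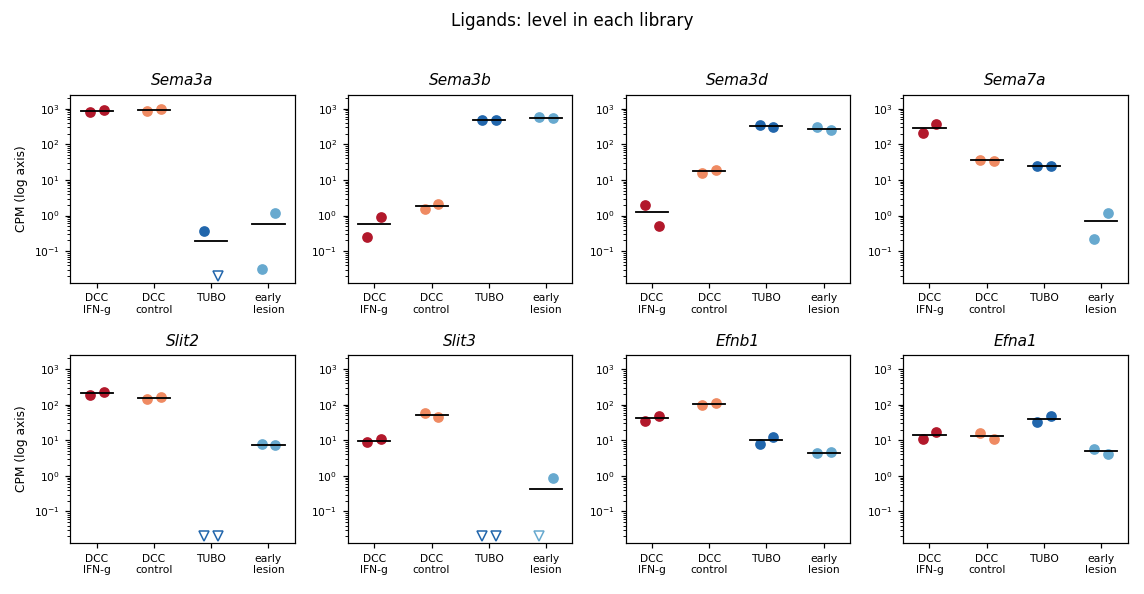
CPM of 8 ligand genes in each library on a log axis, with groups from left to right DCC IFN-gamma, DCC control, TUBO and early lesion and bars at the group means; open triangles, drawn at the foot of the axis, mark libraries without a count. Sema3a lies between 788 and 966 CPM in the DCC libraries and Sema3b between 481 and 583 CPM in the mammary ones.

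Sema3c, a ligand of both neuropilins, was called in all 4 comparisons. It gave 36.2 and 37.3 CPM in DCC IFN-gamma, 11 and 15.6 CPM in DCC control, 4.73 and 4.88 CPM in TUBO and 31.1 and 27.0 CPM in early lesion. Interferon-gamma raised it by 1.47 ± 0.23 (adjusted p = 0.00131). DCC control stood above TUBO by 1.47 ± 0.23 (adjusted p = 0.000549) and below early lesion (-1.13 ± 0.22, adjusted p = 0.00242), and TUBO stood below early lesion (-2.60 ± 0.24, adjusted p = 4.46e-05).

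Sema3e and Sema3f were highest in the cell line. Sema3e, the ligand of Plxnd1, gave 6.08 and 4.0 CPM in DCC IFN-gamma, 2.43 and 3.09 CPM in DCC control, 23.4 and 25.2 CPM in TUBO and 0.318 and 1.29 CPM in early lesion. TUBO exceeded early lesion by 4.96 ± 0.59 (adjusted p = 0.00025; 4.23 and 6.24 without early lesion replicates 1 and 2), and DCC control was below TUBO (-3.13 ± 0.53, adjusted p = 0.000886). Its call between DCC control and early lesion (1.83 ± 0.56, adjusted p = 0.0258) was lost without DCC control replicate 1, DCC control replicate 2 or early lesion replicate 1 (adjusted p 0.0503, 0.102 and 0.156), and the difference was 3.10 without early lesion replicate 2 and 1.10 without early lesion replicate 1. Sema3f, a ligand of Nrp2, gave 2.31 and 1.13 CPM in DCC IFN-gamma, 1.46 and 2.81 CPM in DCC control, 63.1 and 77.3 CPM in TUBO and 13.3 and 12.2 CPM in early lesion. It was lower in DCC control than in TUBO (-5.00 ± 0.39, adjusted p = 4.44e-06) and than in early lesion (-2.54 ± 0.36, adjusted p = 0.000334); without DCC control replicate 2 these were -5.59 and -3.13. TUBO was above early lesion by 2.46 ± 0.33 (adjusted p = 0.000603).

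The membrane-bound semaphorins that rose with interferon-gamma were Sema4a, Sema4b, Sema4d and Sema7a, of the 6 class 4 genes and the 1 class 7 gene. Over all genes 12.6% were called higher. Sema7a (chromosome 9, 57940112 to 57962865, plus strand), which is anchored by a lipid and binds integrins and plexin C1, gave 206 and 366 CPM in DCC IFN-gamma, 35.6 and 34.9 CPM in DCC control, 24.3 and 25.2 CPM in TUBO and 0.222 and 1.2 CPM in early lesion. Both treated libraries were above all others, and early lesion was the lowest group, on 7 and 27 reads. The rise was 3.02 ± 0.46 (adjusted p = 0.00514); its size held at 3.04 and 3.01 without DCC control replicate 1 or 2, but it was then not called (adjusted p 0.0657 and 0.107). Early lesion was below both DCC control (5.74 ± 0.60, adjusted p = 0.000391; 4.86 and 7.27 without early lesion replicates 1 and 2) and TUBO (5.23 ± 0.60, adjusted p = 0.00134; 4.36 and 6.76 in turn). DCC control and TUBO were not called apart (0.51 ± 0.43, adjusted p = 0.366).

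Sema4d (chromosome 13, 51685529 to 51793747, minus strand), the Plxnb1 ligand also known from T cells as CD100, gave 20.7 and 12.8 CPM in DCC IFN-gamma, 3.59 and 2.02 CPM in DCC control, 44.7 and 35.7 CPM in TUBO and 43.7 and 46.3 CPM in early lesion. It rose with treatment by 2.61 ± 0.32 (adjusted p = 0.000362), to a level still under that of the mammary libraries. DCC control was below TUBO (-3.87 ± 0.33, adjusted p = 7.55e-06) and below early lesion (-4.03 ± 0.34, adjusted p = 6.27e-06). Sema4a, a semaphorin with known roles on immune cells, gave 2.97 and 5.13 CPM in DCC IFN-gamma, 1.16 and 0.356 CPM in DCC control, 9.76 and 9.46 CPM in TUBO and 11.2 and 13.5 CPM in early lesion. Its order of groups was that of Sema4d, at a lower level and on only 28 reads in DCC control. The rise of 2.47 ± 0.56 (adjusted p = 0.011) became 3.49 without DCC control replicate 1 and 1.81, not called at an adjusted p of 0.0529, without DCC control replicate 2. DCC control was below TUBO (-3.72 ± 0.57, adjusted p = 0.000461; -4.74 and -3.05 without DCC control replicates 1 and 2) and below early lesion (-4.08 ± 0.58, adjusted p = 0.000282; -5.09 and -3.41 in turn). Sema4b gave 35.1 and 39.6 CPM in DCC IFN-gamma, 16.7 CPM in both DCC control libraries, 29.6 and 28.4 CPM in TUBO and 14.8 and 15.2 CPM in early lesion. It rose by 1.16 ± 0.18 with treatment (adjusted p = 0.00151), and TUBO was higher than early lesion by 0.95 ± 0.18 (adjusted p = 0.00378).

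None of the 6 class 5 and 6 semaphorins, transmembrane proteins, was called with interferon-gamma, where 12.6% of all genes were higher and 8.83% lower. Sema5b and Sema6c were called in no comparison. Sema6a, a ligand of A-class plexins, gave 4.80 and 1.71 CPM in DCC IFN-gamma, 2.56 and 0.713 CPM in DCC control, 140 and 128 CPM in TUBO and 48.1 and 46.8 CPM in early lesion. DCC control was lower than TUBO (-6.45 ± 0.67, adjusted p = 0.000414; -7.55 and -5.72 without DCC control replicates 1 and 2) and lower than early lesion (-4.95 ± 0.65, adjusted p = 0.00122; -6.05 and -4.22 in turn). Sema6d, a Plxna1 ligand, had 3.41 and 12 CPM in DCC IFN-gamma, 19.7 and 24.6 CPM in DCC control, 16.2 and 15 CPM in TUBO and 1.91 and 2.45 CPM in early lesion. Early lesion was the low group, under DCC control by 3.35 ± 0.54 (adjusted p = 0.00106) and under TUBO by 2.84 ± 0.53 (adjusted p = 0.00483). Sema5a had 71.6 and 41.6 CPM in DCC IFN-gamma, 69.9 and 71.2 CPM in DCC control, 63.4 and 66.9 CPM in TUBO and 147 and 130 CPM in early lesion, where it was highest (DCC control against early lesion -0.97 ± 0.22, adjusted p = 0.00563). Sema4g was lower in DCC control, at 11.3 and 12.9 CPM, than in TUBO, at 44.8 and 46.6 CPM (-1.92 ± 0.42, adjusted p = 0.0066, not called without DCC control replicate 1 or 2 at adjusted p 0.0636 and 0.0584). Sema4c was called nowhere, at 13 to 31.1 CPM in the 8 libraries.

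Of the neuropilins, the binding partners of class 3 semaphorins, Nrp2 had the smallest adjusted p of the 71 genes between DCC control and early lesion. Nrp2 (chromosome 1, 62703285 to 62818695, plus strand) gave 354 and 405 CPM in DCC IFN-gamma, 576 and 608 CPM in DCC control, 17.5 and 19.3 CPM in TUBO and 5.78 and 6.42 CPM in early lesion. No 2 groups overlapped, and all 4 comparisons were called. DCC control exceeded TUBO by 5.01 ± 0.18 (adjusted p = 2.03e-08) and early lesion by 6.60 ± 0.19 (adjusted p = 1.14e-08), and TUBO exceeded early lesion by 1.59 ± 0.16 (adjusted p = 8.66e-05). The fall with interferon-gamma was small, -0.64 ± 0.15 (adjusted p = 0.0122), and was not called without DCC control replicate 1 or 2 (adjusted p 0.0535 and 0.0775). Nrp1, the receptor of Sema3a, gave 96.8 and 102 CPM in DCC IFN-gamma, 63.2 and 72.6 CPM in DCC control, 0 and 1.30 CPM in TUBO and 1.97 and 2.90 CPM in early lesion. The treated libraries lay above the untreated ones without a call (0.55 ± 0.63, adjusted p = 0.56). DCC control was above TUBO by 6.75 ± 0.89 (adjusted p = 0.00125; 5.77 without TUBO replicate 1, whose partner holds all 34 counts) and above early lesion by 4.82 ± 0.78 (adjusted p = 0.00315). The call against early lesion was lost without DCC control replicate 2 or early lesion replicate 1 (adjusted p 0.0709 and 0.0643).

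Of the 9 plexins, the signalling receptors of semaphorins, 1 rose and 3 fell with interferon-gamma. Among all genes 12.6% were called higher and 8.83% lower. Among the 4 A-class genes Plxna1 (chromosome 6, 89316314 to 89362620, minus strand) gave 445 and 394 CPM in DCC IFN-gamma, 150 and 157 CPM in DCC control, 85.0 and 97.6 CPM in TUBO and 93.9 and 84.5 CPM in early lesion. It rose with treatment by 1.45 ± 0.15 (adjusted p = 0.000127), from a DCC control level already above TUBO (0.75 ± 0.15, adjusted p = 0.0023) and early lesion (0.78 ± 0.15, adjusted p = 0.00187). Plxna4 gave 55.4 and 76.2 CPM in DCC IFN-gamma, 51.1 and 44.2 CPM in DCC control, 0.207 and 0 CPM in TUBO and 0 and 1.69 CPM in early lesion. It was thus another receptor of DCC libraries, by 8.72 ± 1.36 over TUBO (adjusted p = 0.0026; 7.81 without TUBO replicate 2) and 5.96 ± 1.09 over early lesion (adjusted p = 0.00553; 4.81 without early lesion replicate 1). Without DCC control replicate 2 neither was called (adjusted p 0.0533 and 0.0879), and without TUBO replicate 1 or early lesion replicate 2 no count was left in the lower group. Plxna2 was high in the DCC and low in TUBO, at 33.6 and 29.8 CPM in DCC IFN-gamma, 24.2 and 19.1 CPM in DCC control, 0 and 0.648 CPM in TUBO and 7.63 and 6.69 CPM in early lesion. DCC control exceeded TUBO by 6.09 ± 0.84 (adjusted p = 0.00103; 5.11 without TUBO replicate 1), and TUBO was below early lesion (-4.50 ± 0.82, adjusted p = 0.00787; -3.56 without TUBO replicate 1). Plxna3 fell with treatment (-1.25 ± 0.34, adjusted p = 0.0258), which was not called when DCC IFN-gamma replicate 2 (adjusted p = 0.0996) or DCC control replicate 1 or 2 (adjusted p 0.11 and 0.106) was left out.

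Plxnb1, the receptor of Sema4d, was the plexin with the largest fall outside counting limits. It gave 7.51 and 8.18 CPM in DCC IFN-gamma, 49.7 and 34.9 CPM in DCC control, 53.9 and 43.4 CPM in TUBO and 112 and 125 CPM in early lesion. The treated libraries were below all others, and the fall was -2.43 ± 0.22 (adjusted p = 4.54e-05), in the opposite direction to its ligand. DCC control overlapped TUBO and was below early lesion (-1.49 ± 0.20, adjusted p = 0.000214), as was TUBO (-1.29 ± 0.20, adjusted p = 0.00125). Plxnb3 had 1 count in all of DCC IFN-gamma and 72 in DCC control, a ratio of 88.5 with a counting interval of 15.4 to 3550 (95%), and the call (adjusted p = 0.0263) was lost without DCC IFN-gamma replicate 1 or 2 or DCC control replicate 1 (adjusted p 0.0655, 0.121 and 0.0994). Plxnb2, which binds class 4 semaphorins, was called nowhere, at 196 and 275 CPM in DCC IFN-gamma, 199 and 239 CPM in DCC control, 265 and 283 CPM in TUBO and 217 and 213 CPM in early lesion. Plxnd1, the receptor of Sema3e, gave 54.5 and 75.3 CPM in DCC IFN-gamma, 46.7 and 49.6 CPM in DCC control, 22.5 and 23.3 CPM in TUBO and 7.44 and 9.77 CPM in early lesion. DCC control was above TUBO by 1.07 ± 0.21 (adjusted p = 0.00206) and above early lesion by 2.49 ± 0.22 (adjusted p = 1.03e-05). Plxnc1, the plexin of Sema7a, had 5.83 and 7.55 CPM in DCC IFN-gamma, 4.38 and 2.22 CPM in DCC control, 0.207 and 0 CPM in TUBO and 0.0636 and 2.01 CPM in early lesion. Its call against TUBO (adjusted p = 0.0381) rested on 6 reads there and was lost without DCC control replicate 1 or 2 or TUBO replicate 2 (adjusted p 0.123, 0.079 and 0.165).

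**Figure D4:**
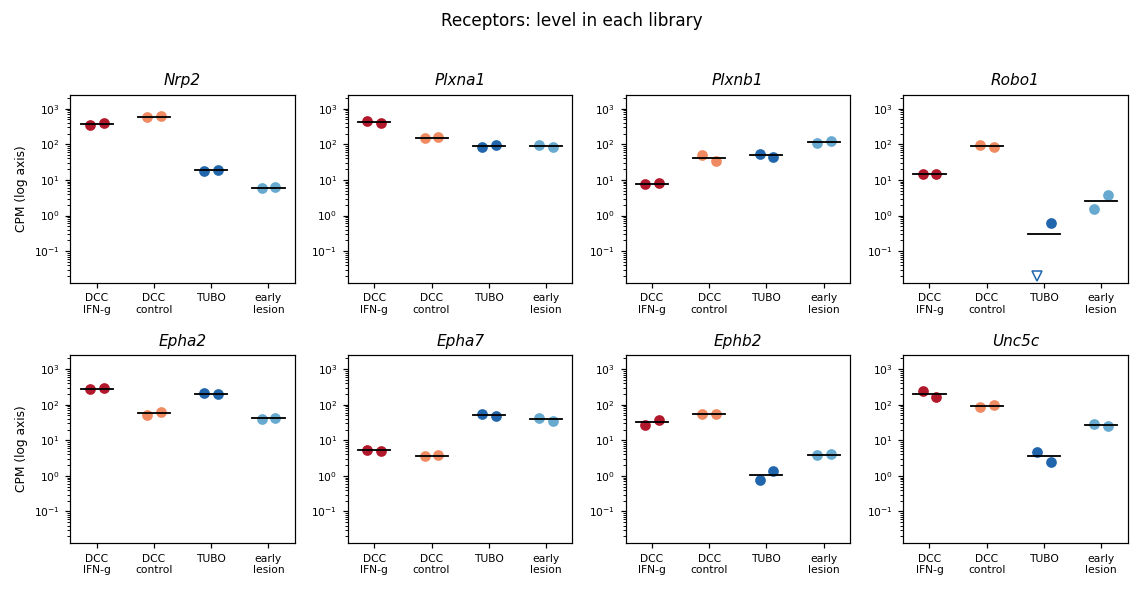
CPM of 8 receptor genes in each library on a log axis, drawn as for the ligands, with groups from left to right DCC IFN-gamma, DCC control, TUBO and early lesion and open triangles for libraries without a count. Epha2 lies at 268 and 294 CPM in DCC IFN-gamma and 208 and 200 CPM in TUBO, against 40.6 to 62.9 CPM in the other 4 libraries.

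Of the 8 ephrins 3 were called lower with interferon-gamma and none higher, where 8.83% and 12.6% of all genes were called. Efnb1 (chromosome X, 99136130 to 99148991, plus strand), a transmembrane ligand of EphB receptors, gave 33.8 and 49.3 CPM in DCC IFN-gamma, 96.6 and 114 CPM in DCC control, 7.66 and 12.1 CPM in TUBO and 4.32 and 4.68 CPM in early lesion. It fell with treatment (-1.34 ± 0.25, adjusted p = 0.00385) yet stayed above every mammary library. DCC control exceeded TUBO by 3.41 ± 0.27 (adjusted p = 4.21e-06) and early lesion by 4.55 ± 0.29 (adjusted p = 9.97e-07). Efna5, a lipid-anchored ligand, gave 26.4 and 37.0 CPM in DCC IFN-gamma, 84.9 and 89.5 CPM in DCC control, 73.6 and 73.4 CPM in TUBO and 63.7 and 56.4 CPM in early lesion. The treated libraries were the low ones, (-1.46 ± 0.18, adjusted p = 0.000398). Efnb2, the partner of Ephb4 in vessels, fell (-0.75 ± 0.19, adjusted p = 0.0177), to 42.6 and 31.1 CPM in DCC IFN-gamma, against 57.5 and 66.5 CPM in DCC control. That call was lost without DCC IFN-gamma replicate 2 or DCC control replicate 2 (adjusted p 0.0754 and 0.1).

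Between the mammary sources, all 5 ephrins called were higher in TUBO, where 11.4% of all genes were called higher and 12.7% lower. Efna1, a high-affinity ligand of Epha2, gave 11.1 and 17.6 CPM in DCC IFN-gamma, 15.9 and 10.9 CPM in DCC control, 32.8 and 47.4 CPM in TUBO and 5.85 and 4.10 CPM in early lesion. TUBO was above early lesion by 3.0 ± 0.34 (adjusted p = 0.00018), and DCC control lay between them, below TUBO (-1.59 ± 0.32, adjusted p = 0.0027) and above early lesion by 1.41 ± 0.33 (adjusted p = 0.00651, or 0.0555 without early lesion replicate 2). The calls of Efna2, Efna3, Efnb1 and Efnb2 in TUBO over early lesion (1.74, 3.21, 1.14 and 0.60) were each lost without early lesion replicate 1 (adjusted p 0.0787, 0.0662, 0.0642 and 0.0898) and without TUBO replicate 2 (adjusted p 0.116, 0.103, 0.104 and 0.193). Early lesion replicate 2 was needed as well (adjusted p 0.0681, 0.0528, 0.0539 and 0.243 without it), and for Efna3 and Efnb2 so was TUBO replicate 1 (adjusted p 0.0815 and 0.168). Efna4, another lipid-anchored ligand, was lower in DCC control, at 4.32 and 5.23 CPM, than in TUBO at 13.5 and 16.4 CPM (-1.64 ± 0.34, adjusted p = 0.00282) or early lesion at 14.7 and 15.4 CPM (-1.65 ± 0.34, adjusted p = 0.00287). Efna3 was lower in DCC control than in TUBO (-4.54 ± 0.91, adjusted p = 0.00238), on 15 reads in DCC control, a difference of -6.27 and -3.70 without DCC control replicates 1 and 2.

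Among the 14 Eph receptors 1 rose with interferon-gamma, where 12.6% of all genes were called higher. This was Epha2 (chromosome 4, 141301240 to 141329384, plus strand), a receptor tyrosine kinase often abundant in carcinoma. It gave 268 and 294 CPM in DCC IFN-gamma, 50.3 and 62.9 CPM in DCC control, 208 and 200 CPM in TUBO and 40.6 and 42.6 CPM in early lesion. The libraries formed a high pair of groups, DCC IFN-gamma and TUBO, and a low pair, DCC control and early lesion. The rise was 2.31 ± 0.16 (adjusted p = 1.03e-05), the smallest adjusted p of the 71 genes in that comparison, and ranged from 2.16 to 2.49 with any of these 4 libraries left out. DCC control was below TUBO (-1.85 ± 0.16, adjusted p = 6.87e-06), and TUBO was above early lesion by 2.29 ± 0.16 (adjusted p = 8.9e-06). The small difference of DCC control over early lesion (0.44 ± 0.15, adjusted p = 0.0439) was not called without DCC control replicate 2 or early lesion replicate 1 or 2 (adjusted p 0.431, 0.228 and 0.126).

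The promoters of Epha2 and Sema7a are shown because these 2 genes had the highest RPKM in DCC IFN-gamma of the 9 that rose. Each line holds the 250 bases before the start of the RefSeq transcript on build GRCm38.p6, plus strand, at chr4:141300971-141301220 for Epha2 and chr9:57939862-57940111 for Sema7a, with the GC box (GGGCGG, or CCGCCC on the other strand) in capitals.
Epha2: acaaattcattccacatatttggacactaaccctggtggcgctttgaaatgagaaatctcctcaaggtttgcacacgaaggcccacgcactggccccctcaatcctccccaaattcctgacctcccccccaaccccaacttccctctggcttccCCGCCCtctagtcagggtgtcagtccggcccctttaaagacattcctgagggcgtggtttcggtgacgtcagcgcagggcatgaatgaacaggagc
Sema7a: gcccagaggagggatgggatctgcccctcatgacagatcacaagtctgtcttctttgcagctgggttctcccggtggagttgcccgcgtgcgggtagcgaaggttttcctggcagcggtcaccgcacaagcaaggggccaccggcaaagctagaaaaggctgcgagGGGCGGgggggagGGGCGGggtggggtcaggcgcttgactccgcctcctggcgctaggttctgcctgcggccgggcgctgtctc
Epha2 has 1 GC box and Sema7a 2. RefSeq windows of 250 bases before and 50 after a start were found for 61 of the 71 genes (77 windows) and were searched on both strands for 4 motifs, whose matches were counted separately where they overlap. The interferon-gamma activated site TTCNNNGAA lay in 8.3% of all 32851 windows, and in 0 of the 13 windows of the 7 genes with an entry that rose and 0 of the 12 windows of genes that fell. The IRF site (GAAA, NN and GAAA in a row) lay in 3.44% of all windows and likewise in none of either set, and the AP-1 site TGANTCA lay in 7.81% of all windows and in 1 of the 13, that of Sema4d. The GC box lay in 35.7% of all windows and in 72.7% of those of the guidance genes, at a median of 20 CG pairs a window for them and 7 over all windows. A match is a description of the letters only.

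Of the 14 Eph receptors 4 were higher and 4 lower in DCC control than in early lesion, and 2 were higher and 6 lower than in TUBO, with 6 not called in each comparison. Over all genes 19.1% were called higher and 18.7% lower against early lesion, and 22.1% and 19.9% against TUBO. Ephb2, a receptor of B-class ephrins, gave 26.7 and 38.3 CPM in DCC IFN-gamma, 54.2 and 53.4 CPM in DCC control, 0.759 and 1.41 CPM in TUBO and 3.81 and 4.15 CPM in early lesion. DCC control was above TUBO by 5.64 ± 0.33 (adjusted p = 4.98e-07) and above early lesion by 3.76 ± 0.29 (adjusted p = 4.01e-06), and the treated libraries were below the untreated ones without a call (-0.73 ± 0.26, adjusted p = 0.0719, or 0.0276 with upper quartile scaling). Epha3, a receptor of A-class ephrins, gave 2.64 and 3.63 CPM in DCC IFN-gamma, 9.07 and 9.74 CPM in DCC control, no count in TUBO and 0 and 0.714 CPM in early lesion. DCC control was at least 86.3-fold higher than TUBO, taking 3 counts per library as the floor (adjusted p = 0.00424), and above early lesion by 4.78 ± 1.33 (adjusted p = 0.0247; 3.71 without early lesion replicate 1). That call was lost without DCC control replicate 1 or 2 (adjusted p 0.0839 and 0.0848), and without early lesion replicate 2 no count was left there.

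Epha1, Epha4 and Epha7, all A-class receptors, were high in TUBO and early lesion. Epha7 gave 5.5 and 5.13 CPM in DCC IFN-gamma, 3.71 and 3.76 CPM in DCC control, 54.2 and 48.8 CPM in TUBO and 41.9 and 35.7 CPM in early lesion. DCC control was lower than TUBO (-3.78 ± 0.21, adjusted p = 3.68e-07) and than early lesion (-3.37 ± 0.21, adjusted p = 8.32e-07). Epha4 gave 0.220 and 0 CPM in DCC IFN-gamma, 2.62 and 0.0792 CPM in DCC control, 26.1 and 26.0 CPM in TUBO and 31.7 and 27.7 CPM in early lesion. Its DCC control libraries lay far apart, and the difference to TUBO (-4.39 ± 1.09, adjusted p = 0.0187) was -8.28 without DCC control replicate 1 and -3.32 without DCC control replicate 2, and lost without TUBO replicate 1 or 2 (adjusted p 0.113 and 0.0954). The difference to early lesion (-4.58 ± 1.10, adjusted p = 0.0175) was -8.47 and -3.50 without these DCC control libraries in turn, and lost without early lesion replicate 1 (adjusted p = 0.0905). Epha1 gave 0.330 and 0.292 CPM in DCC IFN-gamma, 1.64 and 1.11 CPM in DCC control, 22.9 and 22.5 CPM in TUBO and 16.0 and 18.4 CPM in early lesion. It was lower in DCC control than in TUBO (-4.06 ± 0.34, adjusted p = 6.08e-06) and in early lesion (-3.66 ± 0.34, adjusted p = 1.28e-05) and fell with treatment on 16 and 55 reads (-2.11 ± 0.40, adjusted p = 0.00415). That fall was not called when only the 4 DCC libraries were fitted (adjusted p = 0.113) or without both replicate 1 of DCC control and replicate 2 of early lesion (adjusted p = 0.0589). Its exons overlap those of Zyx on the opposite strand, so without a known strand setting its reads are uncertain. The same limit holds for Plxna1, Plxna4, Plxnb1, Ephb4, Unc5c, Efna3 and Efna4, whose exons also overlap another gene on the opposite strand.

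Ephb4, the Efnb2 receptor, was called in all 4 comparisons, at 21.3 and 22.6 CPM in DCC IFN-gamma, 39.7 and 36.8 CPM in DCC control, 123 and 145 CPM in TUBO and 83.6 and 86.8 CPM in early lesion. It fell with treatment (-0.80 ± 0.15, adjusted p = 0.00459). Without both replicate 1 of DCC control and replicate 2 of early lesion the fall was -0.74 and not called. DCC control was below TUBO (-1.81 ± 0.15, adjusted p = 6.94e-06) and below early lesion (-1.16 ± 0.15, adjusted p = 0.000167). TUBO was above early lesion by 0.65 ± 0.15 (adjusted p = 0.00992), a call lost without TUBO replicate 2, early lesion replicate 1 or early lesion replicate 2 (adjusted p 0.0996, 0.0793 and 0.0682). Ephb3 had 17.7 and 26.7 CPM in DCC IFN-gamma, 35.9 and 45.8 CPM in DCC control, 75.4 and 71.8 CPM in TUBO and 51.5 and 52.9 CPM in early lesion. It fell with treatment (-0.88 ± 0.21, adjusted p = 0.0151, or 0.0937 without DCC control replicate 2).

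Slit2 and Slit3 were high in the DCC libraries, and Slit1 was low everywhere. Slit2 (chromosome 5, 47983138 to 48307733, plus strand), a repellent that binds Robo1 and Robo2, gave 185 and 229 CPM in DCC IFN-gamma, 146 and 168 CPM in DCC control, no count in TUBO and 7.82 and 7.36 CPM in early lesion. DCC control was at least 1440-fold higher than TUBO (adjusted p = 1.66e-08) and higher than early lesion by 4.37 ± 0.19 (adjusted p = 2.25e-07), and TUBO was at least 69.7-fold lower than early lesion (adjusted p = 2.13e-06). The treated libraries were above the untreated ones without a call (0.40 ± 0.17, adjusted p = 0.123). Slit3 (chromosome 11, 35121224 to 35708507, plus strand) gave 8.83 and 10.6 CPM in DCC IFN-gamma, 57.5 and 43.9 CPM in DCC control, no count in TUBO and 0 and 0.847 CPM in early lesion. DCC control was at least 465-fold above TUBO (adjusted p = 0.00229) and above early lesion by 7.05 ± 1.08 (adjusted p = 0.0044; 5.89 without early lesion replicate 1, and no count left there without early lesion replicate 2). Neither was called without DCC control replicate 2 (adjusted p 0.0594 and 0.0938). The lower treated level of Slit3 did not pass the test (-2.38 ± 0.80, adjusted p = 0.102).

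Robo1 (chromosome 16, 72308306 to 73046095, plus strand), a main receptor of Slit2, gave 15.1 and 14.9 CPM in DCC IFN-gamma, 96.6 and 86.2 CPM in DCC control, 0 and 0.610 CPM in TUBO and 1.49 and 3.75 CPM in early lesion. The groups did not overlap, DCC control being highest. Its fall with treatment was -2.61 ± 0.63 (adjusted p = 0.0319), which was not called when DCC IFN-gamma replicate 1 or 2 (adjusted p 0.21 and 0.197) or DCC control replicate 1 or 2 (adjusted p 0.168 and 0.217) was left out, with a size of -2.52 to -2.68 throughout, and DESeq2 did not call it (adjusted p = 0.13). DCC control was above TUBO by 8.26 ± 0.90 (adjusted p = 0.000518; 7.28 without TUBO replicate 1, which has no count) and above early lesion by 5.15 ± 0.73 (adjusted p = 0.00174; 5.93 without early lesion replicate 2). Robo2 had 1.17 and 1.13 CPM in DCC IFN-gamma, 8.34 and 10.4 CPM in DCC control, no count in TUBO and 0 and 1.92 CPM in early lesion. DCC control was at least 86.1-fold above TUBO (adjusted p = 0.016), lost without TUBO replicate 1 or 2 (adjusted p 0.0858 and 0.0843). Robo4, the endothelial member, stayed under 1 CPM in every library.

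Per length the netrin receptor Neo1 stood far above the ligand Ntn1, at 47.4 RPKM in DCC IFN-gamma, 51.9 in DCC control, 22.6 in TUBO and 18.3 in early lesion, beside 2.76 to 5.38 RPKM for Ntn1. Ntn1, the prototype netrin, gave 31.8 and 35.7 CPM in DCC IFN-gamma, 15.6 and 20.8 CPM in DCC control, 17.4 and 21 CPM in TUBO and 15.6 and 19.0 CPM in early lesion. The treated DCC were the high group (0.89 ± 0.22, adjusted p = 0.0186, or 0.138 without DCC control replicate 1 and 0.0524 with upper quartile scaling). Ntn3 was at least 95-fold higher in DCC control than in TUBO, which had no count (adjusted p = 0.00868; 0.0501 and 0.0516 without TUBO replicate 1 or 2), but its exons overlap those of Tbc1d24 on the same strand. Ntn4 was called nowhere and stayed at 0 to 5.71 CPM.

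Neo1, which also binds repulsive guidance molecules, gave 410 and 416 CPM in DCC IFN-gamma, 431 and 474 CPM in DCC control, 206 and 187 CPM in TUBO and 166 and 153 CPM in early lesion. DCC control was above TUBO by 1.2 ± 0.15 (adjusted p = 9.67e-05) and above early lesion by 1.51 ± 0.15 (adjusted p = 2.2e-05), and DCC IFN-gamma was not called apart from DCC control (-0.13 ± 0.15, adjusted p = 0.528). Unc5b, a repulsive netrin receptor, gave 193 and 223 CPM in DCC IFN-gamma, 251 and 230 CPM in DCC control, 202 and 209 CPM in TUBO and 43.6 and 46.2 CPM in early lesion. Early lesion was the low group, under DCC control by 2.42 ± 0.15 (adjusted p = 8.33e-07) and under TUBO by 2.19 ± 0.15 (adjusted p = 7.59e-06), and neither DCC IFN-gamma (-0.21 ± 0.14, adjusted p = 0.306) nor TUBO (0.23 ± 0.14 for DCC control over it, adjusted p = 0.214) was called apart from DCC control. Unc5c (chromosome 3, 141465216 to 141834924, plus strand), of the same family, gave 240 and 165 CPM in DCC IFN-gamma, 86.2 and 98.8 CPM in DCC control, 4.66 and 2.52 CPM in TUBO and 28.4 and 25.7 CPM in early lesion. It rose with treatment by 1.13 ± 0.26 (adjusted p = 0.0143, or 0.113 and 0.0533 without DCC control replicate 1 or 2). DCC control was above TUBO by 4.68 ± 0.31 (adjusted p = 2.87e-06; 5.26 without TUBO replicate 1) and above early lesion by 1.77 ± 0.27 (adjusted p = 0.000631), and TUBO was below early lesion (-2.91 ± 0.29, adjusted p = 0.00015; -3.52 without TUBO replicate 1).

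The gene Dcc, the attractive netrin receptor, was called in no comparison, and between DCC IFN-gamma and DCC control it lay at the threshold (-3.46 ± 1.03, adjusted p = 0.051, or 0.0477 with upper quartile scaling and 0.00123 by DESeq2). It gave 1.17 and 1.42 CPM in DCC IFN-gamma, 22.3 and 6.30 CPM in DCC control, 3.17 and 5.84 CPM in TUBO and 1.08 and 8.07 CPM in early lesion. The higher value of these groups came from replicate 1 of DCC control and replicate 2 of early lesion, which also had the largest shares of reads outside genes. The sum over the 17 guidance genes with group means under 3 CPM was also higher in these libraries, although 6 of them, Slit1, Robo4, Unc5a, Unc5cl, Sema3g and Sema6c, were higher in replicate 2 of DCC control than in replicate 1. Of the 17, 9 and 3 had a count in the DCC IFN-gamma libraries, 17 and 16 in DCC control, 9 and 7 in TUBO and 9 and 17 in early lesion. They summed to 1.39 and 1.17 CPM in DCC IFN-gamma, 25.3 and 14 CPM in DCC control, 4.52 and 6.22 CPM in TUBO and 4.8 and 17.6 CPM in early lesion. Whether reads outside genes add to these low counts was not tested.

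Over the 4 comparisons 6 genes were called every time (Efnb1, Epha2, Ephb4, Nrp2, Sema3c and Unc5c), 16 were called 3 times, 21 were called in 2 comparisons, 8 in 1 and 20 in none. The comparisons share libraries, so repeated calls are not independent. The same count was not made over all genes, so whether these numbers are unusual cannot be said.

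Genes that act beside or below these receptors were taken from a list of 65, of which 63 were tested. With interferon-gamma 16 were higher and 9 lower (25.4% and 14.3%, beside the 12.6% and 8.83% of all genes), at a median of 0.21 and -0.20 over all genes. The largest rises were those of Ablim1, an actin-binding protein (2.41 ± 0.22, adjusted p = 5.9e-05), and Met, the hepatocyte growth factor receptor that partners B-class plexins (2.09 ± 0.20, adjusted p = 7.09e-05). Met averaged 40.3 ± 8.24 CPM in DCC IFN-gamma and 9.46 ± 0.46 CPM in DCC control (SD, n = 2 each). The largest called falls were those of Dpysl5 (-4.91 ± 0.67, adjusted p = 0.000638), Tiam1 (-3.82 ± 0.49, adjusted p = 0.000439) and Chl1 (-2.30 ± 0.55, adjusted p = 0.0302). The DCC control libraries lay apart for Chl1, at 19.7 ± 14.9 CPM, and for Tiam1, at 3.45 ± 1.92 CPM (SD, n = 2 each). Partner genes were not checked with libraries left out. Dpysl5 averaged only 0.0367 CPM in DCC IFN-gamma, under the floor. Among the smaller falls was that of Dpysl3, a collapsin response mediator protein (-1.26 ± 0.20, adjusted p = 0.00178). DCC control against early lesion had 18 higher and 22 lower (28.6% and 34.9%, beside 19.1% and 18.7% of all genes). DCC control against TUBO had 18 higher and 20 lower (28.6% and 31.7%, beside 22.1% and 19.9%). TUBO against early lesion had 6 in each direction (9.52%, under the 11.4% and 12.7% of all genes). Dpysl3 averaged 75.5 ± 3.89 CPM in DCC IFN-gamma, 181 ± 30.6 CPM in DCC control, 0.0345 ± 0.0488 CPM in TUBO and 2.30 ± 0.283 CPM in early lesion (SD, n = 2 each). Dpysl5 ran the other way, with means of 1.34 CPM in DCC control, 16.8 CPM in TUBO and 31.9 CPM in early lesion.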

How the data were processed

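The authors deposited 1 table of raw read counts per gene symbol for all 8 libraries, made from total RNA with the Nugen Ovation kit per the labels' protocols. Per the submitters' processing notes, TopHat and HTSeq 0.6.1 were used with mm10. The annotation, strand setting and any filter are not given in the sources used here. Closing lines that name no gene held 35.16% to 63.74% of the reads and were left out. CPM and RPKM were computed from the deposited counts with TMM-normalized library sizes and, for RPKM, the union of GENCODE M21 exons (GRCm38). Exons of 17 of the 71 genes overlap another gene, 14 on the opposite strand and 4 on the same strand, so their reads are uncertain. On the opposite strand these are Efna3, Efna4, Epha1, Epha6, Epha10, Ephb1, Ephb4, Ntn3, Plxna1, Plxna4, Plxnb1, Sema4c, Unc5a and Unc5c. On the same strand they are Nrp1, Ntn3, Plxnc1 and Sema4a.

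Genes kept by filterByExpr (minimum count 10) were tested with the robust quasi-likelihood test of edgeR 4.0.16 in R 4.3.3, as 4 group means over 8 libraries; this leaves 4 residual degrees of freedom. Benjamini-Hochberg adjustment covered all 17069 genes in each of 4 comparisons. The common biological coefficient of variation was 0.4158. With 2 libraries a group no permutation of labels could be informative. Replicate pairs differed by more than counting error. Chi-square over degrees of freedom was 160 in DCC IFN-gamma, 33.5 in TUBO, 18.5 in early lesion and 17.4 in DCC control. By this measure the DCC IFN-gamma pair was the least alike. The test takes the spread from all 4 groups together. Calls with interferon-gamma may therefore look more certain than the spread of the treated pair alone would allow. Intervals and floors cover counting error only.

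The 71 genes, the 65 partner genes and the marker lists were chosen with earlier results of these data known. Described per comparison are called genes whose libraries do not overlap and whose higher group averages at least 1 CPM, up to 12 a direction, and a fixed panel; called genes outside this rule were added after their values were seen. Tried besides were RLE and upper quartile factors, other filters, a replicate block, DESeq2 1.42.0, only the 2 groups compared, and leaving out libraries. Promoter sequences are from RefSeq.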

Additional observations from a re-analysis of the deposited data

How the results depend on the processing

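With 1 library left out at a time, the genes called higher in DCC IFN-gamma than in DCC control numbered 6 to 11 and those lower 8 to 16. The ranges were 14 to 23 higher and 13 to 15 lower for DCC control against early lesion, 16 to 23 and 17 to 19 for DCC control against TUBO, and 10 to 20 and 7 to 13 for TUBO against early lesion. Fitting only the 2 groups compared gave 25 lower genes with interferon-gamma, and dropping both replicate 1 of DCC control and replicate 2 of early lesion gave 5; dropping this pair gave 9 higher in TUBO than in early lesion. No filter gave 17 lower in TUBO than in early lesion. The cause was not tested. All other changes of the counts stayed within 1.5 times. The uncalled Sema3a difference of DCC IFN-gamma over DCC control turned to 0.02 without DCC control replicate 2 and to 0.03 without DCC IFN-gamma replicate 1, and was -0.18 at its lowest, without that pair. Calls that held under every alternative were 5 of 9 higher and 4 of 13 lower with interferon-gamma (Sema4d, Epha2, Sema3c, Plxna1 and Sema4b, and Efna5, Efnb1, Plxnb1 and Sema3d). They were 12 of 22 and 10 of 14 for DCC control against early lesion, 14 of 21 and 14 of 19 against TUBO, and 8 of 17 and 7 of 7 for TUBO against early lesion. The depth limits genes near 3 counts, where a fold rests on few reads.

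The replicate numbers only name the libraries: deviations of same-numbered libraries correlated at 0.0911 for DCC IFN-gamma and DCC control, -0.432 for DCC control and early lesion, -0.0488 for DCC control and TUBO and 0.0957 for TUBO and early lesion. With the replicate number as a block, the counts of higher and lower genes were 9 and 14, 22 and 14, 18 and 19, and 17 and 7 in these comparisons. Crossing the numbers of early lesion in the block, chosen after seeing the data, gave 21 and 14 for DCC control against early lesion.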

Other observations

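Sema3a had the widest range over the 8 libraries among genes with a group mean of at least 10 CPM, 13.58 on the log2 CPM scale. The genes among the 71 whose log2 CPM followed it most closely over the 8 libraries were Plxna4 (Pearson's r 0.989), Slit3 (0.961) and Epha3 (0.953). These values describe libraries that fall into a DCC set and a mammary set, so they restate that split.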
